A study of Mus musculus with 6 samples.

Results

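Metalloproteinases and their inhibitors were examined in RNA sequencing of cultured mouse mesenchymal stromal cells (MSCs), the adherent stromal cells of bone marrow. The genes were chosen by name: protein-coding genes of the GENCODE M21 annotation whose symbol starts with Mmp, Adam, Adamts, Adamtsl or Timp followed directly by a digit. The deposited table of 49328 genes held 80 of the 83 genes with such a symbol: 22 of the MMP family, 31 ADAM, 18 ADAMTS, 5 ADAMTSL and 4 TIMP genes. Adam6a, Adam6b and Adamts19 were not analysed here.

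The libraries formed 2 groups of 3. In the R group, MSCs came from CB6F1 hybrid mice with aGVHD (acute graft-versus-host disease, an attack of transplanted donor immune cells on the recipient) and were treated in culture with a compound given as R, at a dose of 0.5 with the unit written um. The vehicle group held MSCs from CB6F1 mice with aGVHD treated in culture with DMSO. Both groups therefore came from diseased mice. The labels do not say what R is, how long cells were treated, or whether the replicates are different animals or dishes. The p-values therefore reflect the variation among these 6 libraries alone, and part of it may be technical.

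Matrix metalloproteinases (MMPs) are zinc-dependent enzymes, secreted or tethered to the membrane, that cut collagens and other matrix proteins. ADAM proteins are membrane-bound, and several of them shed growth factors, cytokines and receptors from the cell surface. ADAMTS enzymes are secreted and cut proteoglycans and procollagens, and ADAMTSL proteins resemble them but lack the protease domain. Tissue inhibitors of metalloproteinases (TIMPs) are small secreted proteins that block the active sites of MMPs and of some ADAM and ADAMTS enzymes. In marrow, MMP13 is known from the osteoblast lineage, MMP12 from macrophages, and MMP9 from neutrophils and osteoclasts.

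Levels are FPKM, fragments scaled to gene length and library size, as the authors deposited them. A gene was tested if it reached 1 FPKM in at least 3 of the 6 libraries, which 28 of the 80 genes did (10 MMP, 8 ADAM, 5 ADAMTS, 2 ADAMTSL and 3 TIMP). Each of the 28 reached 1 FPKM in at least 1 library of either group. Changes are given as the mean log2(FPKM + 1) in R less that in vehicle, with limma's moderated standard error (SE); the added 1 shrinks them for genes of low level. Adjusted p-values were calculated with limma over the 11862 genes tested, with a threshold of 0.05. In bulk RNA, fewer cells of a type and less RNA per cell cannot be told apart.

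Libraries held an estimated 17060000 to 21760000 reads. Macrophage transcripts were abundant in both groups: the summed FPKM of 12 macrophage markers was 12133 to 15009 in R and 14497 to 19356.5 in vehicle, and Itgam and Fcgr1 fell among them. The sum of 12 stromal markers was 645 to 1031 in R and 524 to 836 in vehicle; their median log2 change was -0.40, and Ly6a fell among them, except without vehicle replicate 2. Of the stromal markers Col1a1 and Pdgfrb were well expressed, whereas Lepr, Thy1, Nt5e and Lum were too low to be tested and Lum was at 0 in 5 of 6 libraries. The sum of 6 smooth muscle and pericyte markers was 421 to 753 in R and 133 to 420 in vehicle, and 2 of them, Tagln and Cspg4, rose, each call holding in 1 of the 6 fits with a library left out (Tagln without vehicle replicate 2, Cspg4 without R replicate 1). Cspg4 reached 1 FPKM in R libraries only, so it was tested through the group where it was high. Of 7 neutrophil markers measured, S100a9, Elane and Mpo were at 0 in every library.

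R-treated cells had more transcript of the matrix protease Mmp11 and less of the collagenase Mmp13, and these were the 2 of 28 tested genes that passed the threshold. Among all tested genes 6.82% passed, 2.39% higher and 4.43% lower in R, so the share of 7.14% in the family was near the background. An unadjusted limma p under 0.05 was reached by 11 of the 28 genes and by 24.0% of all tested genes. Timp1, Timp2 and Timp3 did not pass but each had a higher mean in R. Of the 23 tested genes of the MMP, ADAM and ADAMTS families, 14 had a negative log2 change and 9 a positive one. Adam23, counted among the 23, lacks the catalytic motif. The median log2 change was 0.94 for the 3 tested TIMP genes and -0.13 for the 23 MMP, ADAM and ADAMTS genes, against -0.00 for all tested genes. The 3 values of R lay above those of vehicle in 5 of the 28 genes and below them in 5 others, and in 13.9% and 15.5% of all tested genes.

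**Figure D1:**
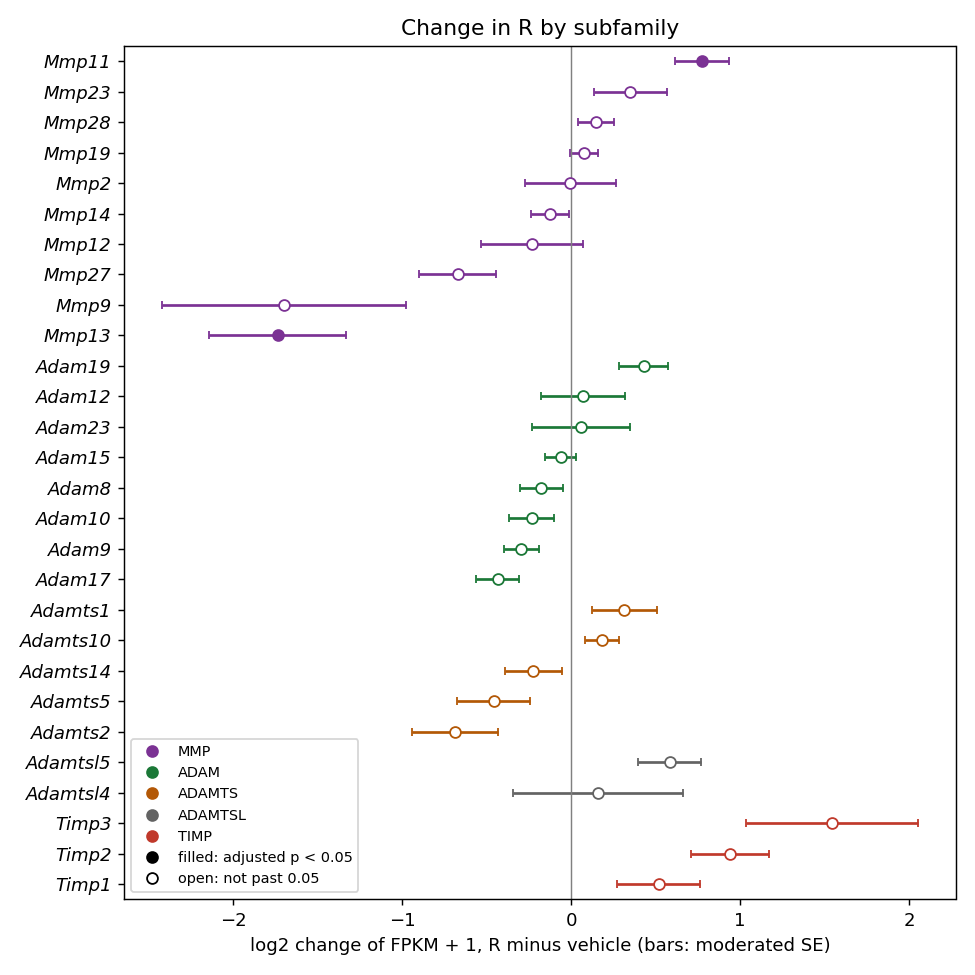
Log2 change of FPKM + 1 (R minus vehicle, x axis) of the 28 tested genes, ordered within subfamily by size, with moderated SE as bars; filled points passed an adjusted p of 0.05. Mmp11 at 0.77 and Mmp13 at -1.74 are filled, and the 3 TIMP genes lie between 0.52 and 1.54.

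The 250 bases upstream of the RefSeq start of both genes that passed (GRCm38.p6) are shown because the same short motifs were searched in them and in the other promoters. Capitals mark matches on either strand to TGANTCA, the binding motif of AP-1 factors, TTCNNNGAA, the GAS motif bound by STAT factors, or TGTGGTT, a RUNX motif. The Mmp13 sequence is chr9:7272264-7272513 on the plus strand, and the Mmp11 sequence is chr10:75932503-75932752 on the minus strand, inside the longer GENCODE span of the gene.
Mmp11: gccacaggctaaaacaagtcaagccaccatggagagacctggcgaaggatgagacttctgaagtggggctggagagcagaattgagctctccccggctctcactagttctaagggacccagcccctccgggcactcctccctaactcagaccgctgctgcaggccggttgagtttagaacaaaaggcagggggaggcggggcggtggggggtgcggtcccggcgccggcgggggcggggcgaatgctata
Mmp13: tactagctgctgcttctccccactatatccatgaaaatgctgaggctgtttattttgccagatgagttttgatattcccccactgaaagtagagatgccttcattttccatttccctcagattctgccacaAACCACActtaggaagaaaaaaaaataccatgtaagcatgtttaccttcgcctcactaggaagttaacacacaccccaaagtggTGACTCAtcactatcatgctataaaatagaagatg

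The Mmp13 promoter held an AP-1 match whose first base lay 35 bases before the start, and a RUNX match at 119 bases, and none to GAS. None of the 3 motifs occurred in the Mmp11 window, which had a GC content of 63.2% against 40.4% in Mmp13. An AP-1 match was present in 11 of the 50 members with a promoter in the RefSeq table and in 7.82% of the promoters of all 27025 genes there. Besides Mmp13 these were Mmp1b, Mmp3, Mmp7, Mmp10, Mmp12, Mmp20, Adam19, Adam20, Adam25 and Adam29. GAS matched in 3 of the 50 (Adam21, Adam26b and Mmp23) and in 8.13% of all genes, and RUNX in 3 of the 50 (Mmp7, Mmp13 and Mmp27) and in 5.08%. These are matches of letters in a fixed window, with no measurement of binding.

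Collagenases cleave the triple helix of fibrillar collagens. Of the secreted MMPs grouped here as collagenases (Mmp13, Mmp8 and Mmp1b), only Mmp13 was expressed at a level that could be tested. Mmp14, a membrane-type MMP treated below, was outside this grouping. Mmp13 lies on chromosome 9 (7272514 to 7283331, GRCm38). Its FPKM was 16.7, 12.6 and 15.3 in R replicates 1, 2 and 3, against 51.2, 27.2 and 97.7 in vehicle replicates 1, 2 and 3. All 3 R libraries were low and close together, and the vehicle libraries were higher and differed more than 3-fold among themselves. Mmp13 fell to 14.9 ± 2.09 FPKM in R, against 58.7 ± 35.9 FPKM in vehicle (SD, n = 3 each; log2 change -1.74, SE 0.40, limma adjusted p = 0.0498). Each fit with 1 library fewer gave a negative change (-2.19 to -1.28), but the call ended without R replicate 1, 2 or 3 (limma adjusted p = 0.0996, 0.137 and 0.105) or vehicle replicate 1 (0.146), and it held without vehicle replicate 2 (0.0127) or 3 (0.0397). It also ended with equal library medians, quantile normalization, a pseudocount of 5, or no filter on low values (limma adjusted p = 0.0525, 0.0516, 0.0575 and 0.142). The neutrophil collagenase Mmp8 was below the testing filter, with 0.702, 0.711 and 0.388 FPKM in R and 1.98, 1.21 and 0.845 FPKM in vehicle, or about 17 to 37 reads per R library and 41 to 82 per vehicle library. Mmp1b stood at 0 to 2 reads per library in both groups.

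The gelatinases Mmp2 and Mmp9 cleave denatured collagen and basement membrane collagen. Mmp2, a stromal product, was at 43.9, 39.5 and 61.7 FPKM in R and 31.7, 54.7 and 62.3 FPKM in vehicle. The ranges overlapped almost fully, at a mean of 48.4 ± 11.7 FPKM in R and 49.6 ± 15.9 FPKM in vehicle (SD, n = 3 each; log2 change -0.00, SE 0.27). Mmp9 was at 0.832, 2.37 and 0.485 FPKM in R, against 3.38, 2.11 and 22.1 FPKM in vehicle. Vehicle replicate 3 held most of the Mmp9 signal and was also the highest in Mmp13, and R replicate 2 overlapped with vehicle replicate 2. The log2 change of Mmp9 was -1.70 (SE 0.72, limma adjusted p = 0.208), and it was -0.82 without vehicle replicate 3. Summed FPKM of the 7 neutrophil markers lay at 6.46 to 9.63 in R libraries and 8.63 to 14.5 in vehicle libraries. Csf3r made most of this neutrophil sum in each library, while S100a8 reached at most 1.33 FPKM, Camp 0.989 and Ltf 0.0321. Summed FPKM of 7 osteoclast markers lay at 44.1 to 50.04 in R libraries and 27.4 to 56.9 in vehicle libraries. Ctsk made most of this osteoclast sum in each library. Calcr was at 0 throughout, and Dcstamp, Ocstamp and Oscar did not exceed 0.421 FPKM. Of the 3 tested osteoclast markers 1 passed, Itgb3, which was higher in R (log2 change 1.13, limma adjusted p = 0.0161). Its call ended without R replicate 3, and 2.39% of all tested genes rose. Each sum thus rested mainly on 1 gene, and the part of either cell type in Mmp8 and Mmp9 was not tested.

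Stromelysins act on non-collagen matrix proteins. Mmp11, or stromelysin-3, was at 8.47, 9.13 and 8.01 FPKM in R replicates 1, 2 and 3, against 3.46, 5.86 and 4.66 FPKM in vehicle replicates 1, 2 and 3. Each R library was above each vehicle library. Mmp11 rose to 8.54 ± 0.562 FPKM in R, against 4.66 ± 1.20 FPKM in vehicle (SD, n = 3 each; log2 change 0.77, SE 0.16, limma adjusted p = 0.0342). With 1 library fewer the change stayed between 0.61 and 0.92, but the call ended without R replicate 1, 2 or 3 (limma adjusted p = 0.0867, 0.102 and 0.0725) or vehicle replicate 1 or 3 (0.0711 and 0.0617), and it held without vehicle replicate 2 (0.0268). With no filter on low values it ended as well (limma adjusted p = 0.102). The gene lies on chromosome 10 (75923222 to 75936496) and shares 5.58% of its exon bases with Chchd10 on the opposite strand. The labels do not say whether counting used strand, so reads of the shared bases cannot be told apart. Chchd10 averaged 3.89 FPKM in R and 5.83 FPKM in vehicle.

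Mmp12, the macrophage elastase, was among the most abundant secreted MMPs and its groups overlapped. It was at 70.9, 29.7 and 36.8 FPKM in R, against 52.5, 41.5 and 58.3 FPKM in vehicle (log2 change -0.23, SE 0.30). R replicate 1 was the highest of the 6 libraries and the other R libraries the lowest. Of the class, 3 genes were too low to test. Mmp3 had about 14 to 38 reads per R library and 13 to 57 per vehicle library, and Mmp7 was at 0 throughout. Mmp10, the other close relative of Mmp3, had 0.614, 0.323 and 0.45 FPKM in R and 0.238, 0.062 and 0.058 FPKM in vehicle, which stands for 10 to 23 reads per R library and 2 to 7 reads per vehicle library.

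The 9 analysed MMP genes of mouse chromosome 9 lie in a cluster between 7272514 and 7699585 (GRCm38), a span of 427072 bases. In map order they are Mmp13, Mmp12, Mmp1b, Mmp3, Mmp10, Mmp8, Mmp27, Mmp20 and Mmp7, and 3 of them were high enough to test. The neighbours did not share a direction. Mmp13, Mmp8 and Mmp27 had all R values below all vehicle values, Mmp10 had all of them above, and Mmp12, Mmp3 and Mmp1b overlapped. Of all tested genes, 15.5% had R values all lower and 13.9% all higher. Below the filter, among genes with a value above 0, these shares were 5.64% and 5.2%. Mmp13 alone of the cluster passed the threshold, and Mmp8 and Mmp10 were not tested. Mmp27, a little studied member, was at 0.707, 1.13 and 0.476 FPKM in R, against 2.76, 1.55 and 1.27 FPKM in vehicle (log2 change -0.67, SE 0.23, limma adjusted p = 0.129). Mmp20, the enamel protease, and Mmp7 were at 0 in every library. The exons of Mmp12 and Mmp1b overlap on opposite strands over 157 bases, at 2.17% of the exon bases of Mmp12.

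**Figure D2:**
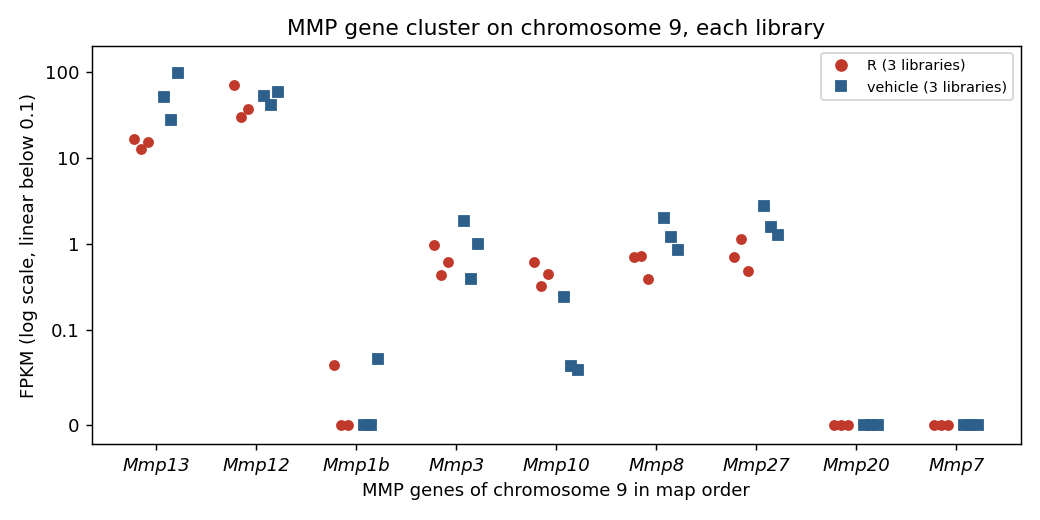
FPKM of the 9 analysed MMP genes of chromosome 9 in map order (x axis), each library as a point, R left of vehicle. The y axis is logarithmic above 0.1 and linear below. Mmp13, Mmp8 and Mmp27 are lower in all 3 R libraries, Mmp10 is higher in all 3, and Mmp20 and Mmp7 are at 0.

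The membrane-type MMPs activate other MMPs at the cell surface. Mmp14 (MT1-MMP), the activator of pro-MMP2 and the most abundant MMP here, was at 55.4, 57.7 and 71.3 FPKM in R and 64, 67.8 and 68.5 FPKM in vehicle. Its groups overlapped (log2 change -0.13, SE 0.11). The other 5 were below the filter, with at most 1.49 FPKM. Among these, Mmp15 had 1.49, 0.608 and 0.923 FPKM in R, against 0.315, 0.277 and 0.444 FPKM in vehicle, each R library above each vehicle library. Mmp25, a leukocyte enzyme, went the other way, with about 1 to 5 reads per R library and 10 to 17 reads per vehicle library. Mmp17 was at 1.22, 0.47 and 0.301 FPKM in R and 0.248, 0.347 and 0.159 FPKM in vehicle, where R replicate 3 lay within the vehicle range.

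Of the remaining MMPs, Mmp19, Mmp23 and Mmp28 were tested and did not pass. Mmp19 was nearly level, at 10.1 ± 0.669 FPKM in R and 9.53 ± 0.221 FPKM in vehicle (SD, n = 3 each; log2 change 0.08, SE 0.08). It shares 22.3% of its exon bases with Tmem198b on the opposite strand. Mmp23 averaged 29.6 ± 7.78 FPKM in R and 22.7 ± 4.36 FPKM in vehicle (log2 change 0.35), and Mmp28 was at 1.86, 1.98 and 2.16 FPKM in R and 1.62, 1.9 and 1.61 FPKM in vehicle (log2 change 0.15).

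The 3 tested inhibitors each had a higher mean in R, although none passed the threshold over all genes. An unadjusted limma p under 0.05 was reached by 2 of the 3, and by 24.0% of all tested genes. Timp2, which both inhibits MMP14 and takes part in its activation of pro-MMP2, lies on chromosome 11 (118301069 to 118355740). Its FPKM was 318, 500 and 596 in R replicates 1, 2 and 3, against 209, 266 and 241 in vehicle replicates 1, 2 and 3. The groups did not overlap, and R replicate 1 was the lowest of the R libraries. The mean was 472 ± 141 FPKM in R and 239 ± 28.5 FPKM in vehicle (SD, n = 3 each; log2 change 0.94, SE 0.23, limma adjusted p = 0.0568). Timp2 passed without R replicate 1 (log2 change 1.20, limma adjusted p = 0.0143), with equal medians (0.0499) and with a stricter filter of 5 FPKM (0.0452).

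Timp3 binds to the extracellular matrix and is the TIMP that also inhibits ADAM17 and aggrecanases. It was at 34.1, 55.3 and 140 FPKM in R, against 14.2, 21 and 32.6 FPKM in vehicle. R replicate 3 was far above the rest, and R replicate 1 was just above vehicle replicate 3. The log2 change was 1.54 (SE 0.51, limma adjusted p = 0.121), and 0.99 without R replicate 3. Timp3 lies on chromosome 10 (86300372 to 86349506) inside Syn3, which is on the opposite strand. Syn3 averaged 0.0343 FPKM in R and 0.0442 FPKM in vehicle, and its exons cover 21.3% of the exon bases of Timp3.

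Timp1, a secreted inhibitor that many inflammatory and growth signals induce, was the most abundant gene of the whole set. It was at 611, 980 and 586 FPKM in R and 424, 438 and 642 FPKM in vehicle. Vehicle replicate 3 lay within the R range (log2 change 0.52, SE 0.25, limma adjusted p = 0.256). Timp4, mostly known from heart and brain, was at 0.0156, 0.00943 and 0.0188 FPKM in R and 0, 0.00905 and 0 FPKM in vehicle, which stands for 1 to 2 reads per R library and 0 to 1 per vehicle library.

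**Figure D3:**
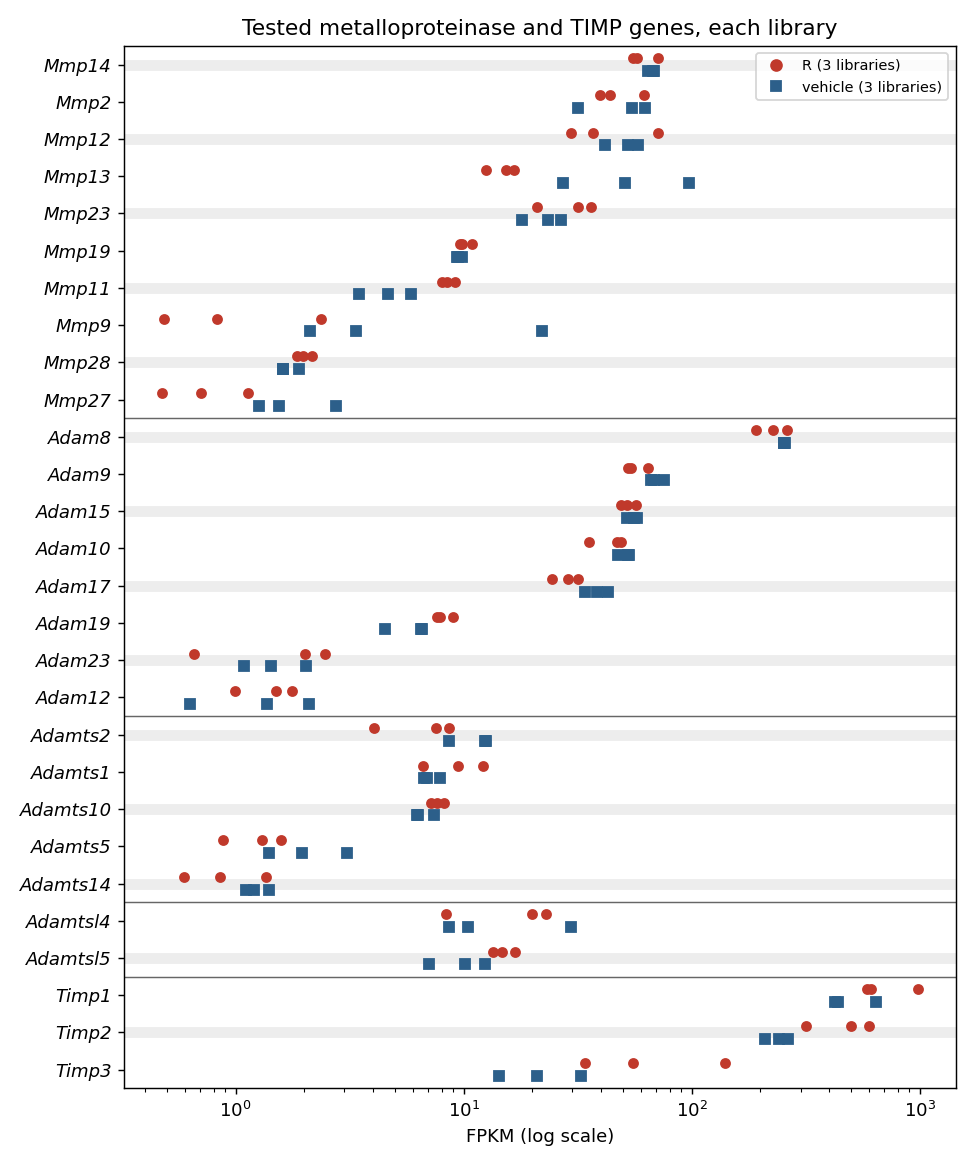
FPKM of the 28 tested genes in each library (x axis, log scale), R points above vehicle points in each row, grouped as MMP, ADAM, ADAMTS, ADAMTSL and TIMP and ordered by mean. Timp1 and Timp2 are the highest with Adam8, and Mmp13 and Mmp11 show groups that do not overlap.

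FPKM are scaled by gene length, so levels can be summed over genes. The TIMP sum was 963, 1535 and 1322 FPKM in R replicates 1, 2 and 3, against 647, 724 and 916 FPKM in vehicle replicates 1, 2 and 3. All R libraries were above all vehicle libraries, with R at 1.67 times the vehicle mean, and Timp1 alone made 60.3% of the sum. The MMP sum was 235, 204 and 241 FPKM in R, against 244, 242 and 353 FPKM in vehicle, or 0.811 of the vehicle mean. Its groups were separated narrowly, by 241.3 FPKM in R replicate 3 against 241.9 FPKM in vehicle replicate 2. Without Mmp13 the groups of the MMP sum overlapped, at 212 ± 17.9 FPKM in R and 221 ± 31.5 FPKM in vehicle (SD, n = 3 each). The ADAM sum was 453, 375 and 434 FPKM in R, against 490, 477 and 470 FPKM in vehicle. Its groups did not overlap without Adam8 either, at 194 ± 11.6 FPKM in R and 225 ± 11.8 FPKM in vehicle. The MMP sum divided by the TIMP sum was 0.244, 0.133 and 0.182 in R, against 0.378, 0.334 and 0.385 in vehicle, with no R library reaching the vehicle range. All MMP, ADAM and ADAMTS genes together over the TIMP sum gave 0.745, 0.395 and 0.536 in R, against 1.18, 1.04 and 0.935 in vehicle, again without overlap. These are ratios of transcripts, and no enzyme activity was measured. No test was applied to the sums, since their members were chosen by name with earlier results known.

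Beside the TIMP, MMP and ADAM sums, the smooth muscle and pericyte sum given above did not overlap between groups. Its margin was narrow, with the lowest R sum at 420.7 and the highest vehicle sum at 419.7. Acta2 made most of that sum, at 596, 734 and 411 FPKM in R and 127, 406 and 212 FPKM in vehicle. It did not pass (limma adjusted p = 0.103). The sum of 6 endothelial markers did not overlap either, at 3.13 to 6.90 in R libraries and 1.89 to 2.65 in vehicle libraries. Of these, 1 was tested and did not pass. The stromal and macrophage sums overlapped, while in 7 of 12 macrophage markers all R values lay below all vehicle values, against 15.5% of all tested genes. The sum of 7 T and NK cell markers overlapped too, at 1.99 to 4.80 in R libraries and 4.06 to 6.15 in vehicle libraries. The 2 tested markers, Cd4 and Nkg7, went in opposite directions. Among the untested ones, Cd3g, Cd8a and Prf1 were lower in each R library, none of them above 1.41 FPKM in any library. Cd3e overlapped and Ncr1 was at 0 throughout. Of all genes below the filter with a value above 0, 5.64% were lower in each R library. Cd4 was at 4.25, 1.43 and 1.58 FPKM in R and 0.974, 1.27 and 0.942 FPKM in vehicle, higher in each R library without passing (limma adjusted p = 0.236). Among these markers, the cytotoxic granule gene Nkg7 fell to 0.142 ± 0.127 FPKM in R, against 2.22 ± 0.77 FPKM in vehicle (SD, n = 3 each; log2 change -1.47, limma adjusted p = 0.00789). Nkg7 reached 1 FPKM in vehicle libraries only, so it was tested through the group where it was high. The part of these cell types in the TIMP and MMP levels was not tested.

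**Figure D4:**
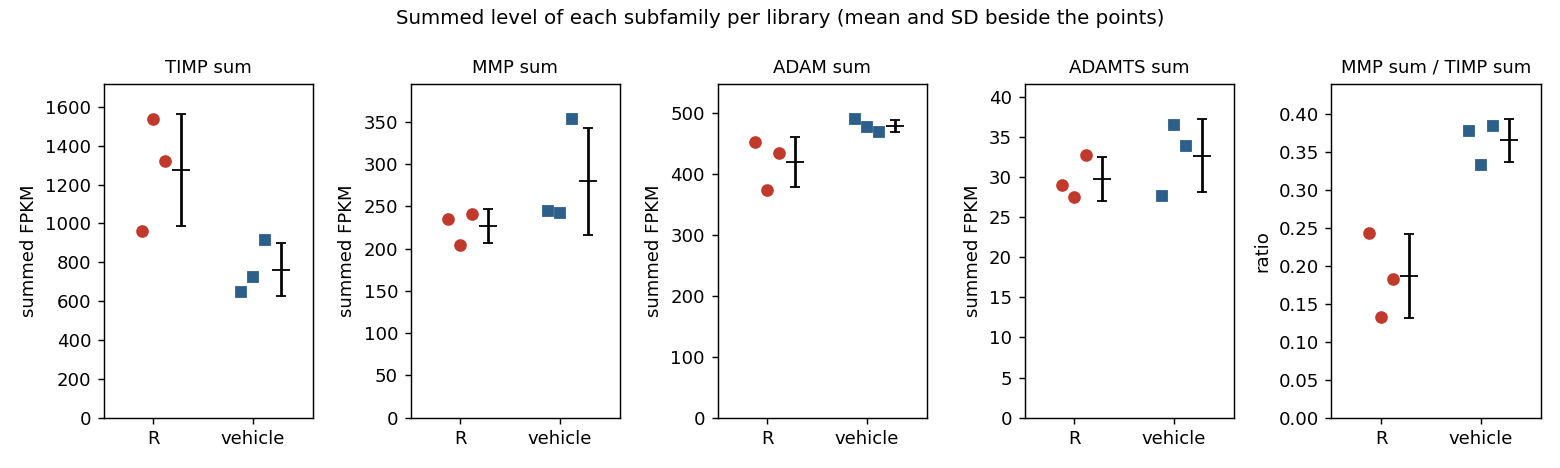
Summed FPKM of the TIMP, MMP, ADAM and ADAMTS genes and the ratio of the MMP to the TIMP sum in each library (y axes start at 0), R left of vehicle, with mean and SD beside the points. The TIMP sum is higher and the ratio lower in all 3 R libraries. The ADAM sum and, by a narrow margin, the MMP sum are lower in all 3, while the ADAMTS sums overlap.

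The ADAM sheddases of somatic tissues were well expressed. Of the 8 ADAM genes tested with limma 0 passed the threshold, against 6.82% of all tested genes. An unadjusted limma p under 0.05 was found in 3 of the 8, against 24.0% of all tested genes. Adam8, a leukocyte protease, gave 53.4% of the ADAM sum, at 262, 191 and 228 FPKM in R and 253, 253 and 256 FPKM in vehicle. The vehicle libraries were nearly identical and lay within the R range (log2 change -0.18, SE 0.13). Adam17 (TACE), which sheds TNF and EGF receptor ligands, was at 28.7, 24.5 and 31.7 FPKM in R, against 43, 38.6 and 34 FPKM in vehicle. Each R library was below each vehicle library (log2 change -0.43, SE 0.13, limma adjusted p = 0.0895). Its exons overlap those of Iah1 on the opposite strand over 4.35% of their bases.

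Adam9, a broadly expressed sheddase, was likewise lower in each R library, at 52.4, 54.4 and 64 FPKM in R, against 75.2, 66.3 and 68.3 FPKM in vehicle (log2 change -0.29, SE 0.10, limma adjusted p = 0.142). Adam15 was at 52.2, 56.8 and 49.1 FPKM in R and 55.8, 57.4 and 51.9 FPKM in vehicle, with overlapping groups. Adam10, which sheds Notch receptors and cadherins, averaged 43.8 ± 7.32 FPKM in R and 51.2 ± 3.02 FPKM in vehicle (SD, n = 3 each; log2 change -0.23, SE 0.13). In contrast to these, Adam19, a sheddase of neuregulins, was higher in each R library, at 8.18 ± 0.724 FPKM in R and 5.88 ± 1.16 FPKM in vehicle (log2 change 0.43, SE 0.14, limma adjusted p = 0.125).

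Adam12 and Adam23 were the other tested ADAM genes, with log2 changes of 0.07 and 0.06, and their sign depended on which library was left out. Adam33 was below the filter and lower in each R library, with 0.418, 0.278 and 0.318 FPKM in R and 1.06, 0.702 and 0.491 FPKM in vehicle. Adam11, Adam22 and Adam23 lack the catalytic motif and are known from the nervous system. Adam11 and Adam22 were below the filter, with 1 to 12 and 44 to 108 estimated reads in a library and overlapping groups. Of 19 others, most of which are known from testis, 10 were at 0 in every library and the rest had at most 29 estimated reads in a library. Adam28 had 1 to 7 reads per R library and 0 in each vehicle library.

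Among the ADAMTS genes, 5 were tested and 0 passed, against 6.82% of all tested genes. An unadjusted limma p under 0.05 was reached by 1 of the 5, and by 24.0% of all tested genes. Adamts2, the main enzyme that removes the N-propeptide of procollagen I, had the highest mean over the 6 libraries, but in R it lay below Adamts1 and Adamts10. Its FPKM was 4.06, 7.58 and 8.61 in R, against 8.62, 12.4 and 12.5 in vehicle (log2 change -0.69, SE 0.26, limma adjusted p = 0.158). The R libraries were all lower, R replicate 3 by a narrow margin to vehicle replicate 1. Neither chain of its substrate passed. Col1a1 averaged 479 ± 136 FPKM in R and 214 ± 75.7 FPKM in vehicle without overlap (limma adjusted p = 0.0791), and Col1a2 averaged 217 ± 49.8 FPKM in R and 149 ± 61.8 FPKM in vehicle with overlap (limma adjusted p = 0.342; SD, n = 3 each). Adamts14, of the same clade, averaged 0.937 ± 0.391 FPKM in R and 1.24 ± 0.145 FPKM in vehicle.

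Of the proteoglycanases, Adamts1 was at 12.1, 6.64 and 9.46 FPKM in R and 6.91, 7.89 and 6.72 FPKM in vehicle (log2 change 0.32, SE 0.19). Adamts5, the main aggrecanase of mouse cartilage, averaged 1.25 ± 0.351 FPKM in R and 2.14 ± 0.846 FPKM in vehicle (log2 change -0.46, SE 0.22). Both pairs of groups overlapped. Adamts4 was below the filter and lower in each R library, with 0.899, 0.855 and 0.702 FPKM in R and 1.18, 0.91 and 1.67 FPKM in vehicle. Adamts10, which acts on fibrillin microfibrils, was at 7.61, 8.22 and 7.18 FPKM in R and 6.24, 7.43 and 6.28 FPKM in vehicle, with overlap (log2 change 0.18, SE 0.10). The sum over the ADAMTS genes was 29.8 ± 2.74 FPKM in R and 32.6 ± 4.54 FPKM in vehicle (SD, n = 3 each), with overlapping groups.

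The ADAMTSL genes encode matrix proteins without protease activity. Adamtsl5 was higher in each R library, at 13.4, 16.8 and 14.7 FPKM in R and 7.06, 10.1 and 12.4 FPKM in vehicle (log2 change 0.58, SE 0.19, limma adjusted p = 0.113). Adamtsl4, which binds fibrillin, was at 8.36, 19.9 and 23.1 FPKM in R and 8.64, 10.5 and 29.5 FPKM in vehicle. Its groups overlapped, and the sign of its log2 change (0.16, SE 0.50) depended on the library left out. Adamtsl3 was below the filter, with 0.261, 0.833 and 3.03 FPKM in R and 0.371, 0.882 and 0.762 FPKM in vehicle, and R replicate 3 alone stood out.

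Of the 52 genes too low to be tested, 14 were at 0 in every library and 38 had a value above 0 somewhere. In 4 of the 38 each R library was higher than each vehicle library (Mmp10, Mmp15, Adam28 and Timp4) and in 4 each was lower (Mmp8, Mmp25, Adam33 and Adamts4). Among all 13713 genes below the filter with a value above 0 these shares were 5.2% and 5.64%. In Timp4, R replicate 2 and vehicle replicate 2 held about 1 read each, so their order in FPKM reflects library depth alone. Adam28 rested on 1 to 7 reads per R library against 0 per vehicle library. No test was made of these genes. At these depths 3 reads of a gene of 1 kb stand for 0.138 to 0.176 FPKM, so a value of 0 does not show absence of the transcript.

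Activators, partners and other inhibitors were followed in a list of 26 genes, of which 16 were tested, 1 rose and 1 fell. Among all tested genes 2.39% rose and 4.43% fell. Rhbdf2 (iRhom2), which carries ADAM17 to the cell surface and is prominent in macrophages, fell to 11, 9.49 and 9.95 FPKM in R, against 19.6, 15.9 and 14.4 FPKM in vehicle (log2 change -0.66, SE 0.12, limma adjusted p = 0.0267). With a library left out, its call held only without vehicle replicate 3 (limma adjusted p up to 0.082 in the 6 fits). The related Rhbdf1 was at 11.7, 12.7 and 10.3 FPKM in R and 4.93, 8.47 and 7.32 FPKM in vehicle, higher in each R library without passing (log2 change 0.69, SE 0.18, limma adjusted p = 0.0664). Itgb3, the beta subunit of an integrin that binds vitronectin, rose to 7.36, 4.65 and 5.56 FPKM in R, against 1.56, 2.65 and 2.13 FPKM in vehicle (log2 change 1.13, SE 0.19, limma adjusted p = 0.0161, and 0.0511 without R replicate 3, where the call ended). Reck, a membrane-anchored MMP inhibitor, was at 2.9, 2.76 and 4.91 FPKM in R and 1.64, 2.3 and 1.84 FPKM in vehicle (limma adjusted p = 0.114). Furin, which activates membrane-type MMPs and ADAM proenzymes, averaged 24.5 FPKM in R and 24.6 FPKM in vehicle. The list's median log2 change was 0.14.

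Of 21 substrates of ADAM10 and ADAM17, 17 were tested, 2 rose and 1 fell, where 2.39% of all tested genes rose and 4.43% fell. Hbegf and Ereg, EGF receptor ligands released by shedding, rose. Hbegf was at 30, 28.6 and 20.6 FPKM in R, against 7.7, 8.12 and 10.9 FPKM in vehicle (log2 change 1.46, SE 0.18, limma adjusted p = 0.00475, held in all 6 fits with a library left out). Ereg was at 5.91, 7.42 and 10.7 FPKM in R, against 1.9, 1.54 and 3.85 FPKM in vehicle (log2 change 1.42, SE 0.28, limma adjusted p = 0.0309), a call that ended without R replicate 2 or 3 or vehicle replicate 1 or 2 (limma adjusted p up to 0.107). Tnf, the cytokine after which TACE is named, fell to 29.1, 21.4 and 25.1 FPKM in R, against 44, 45 and 42.7 FPKM in vehicle (log2 change -0.79, SE 0.12, limma adjusted p = 0.0108, held in all 6 such fits). The list's median log2 change was -0.18.

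Of 15 matrix substrates, 11 were tested, 3 rose and 0 fell, with a median log2 change of 0.79. Of all tested genes, 2.39% rose and 4.43% fell. Col4a1, a collagen chain of basement membranes that gelatinases cleave, was at 113, 117 and 101 FPKM in R, against 49.6, 75.3 and 41.8 FPKM in vehicle (log2 change 1.02, limma adjusted p = 0.0321). Its partner chain Col4a2 was at 92.1, 83.8 and 69.7 FPKM in R, against 36.2, 52.5 and 31.9 FPKM in vehicle (log2 change 1.03, limma adjusted p = 0.0257). All R libraries were above all vehicle libraries in both, and in Thbs1, a matricellular protein, at 673 ± 102 FPKM in R and 255 ± 124 FPKM in vehicle (SD, n = 3 each; log2 change 1.49, limma adjusted p = 0.0342). The call of Col4a1 ended without R replicate 1, 2 or 3 or vehicle replicate 1 (limma adjusted p up to 0.114). That of Col4a2 ended without R replicate 1 or 2 or vehicle replicate 1 (limma adjusted p up to 0.093), and that of Thbs1 in each such fit but the one without vehicle replicate 2 (limma adjusted p up to 0.118). The proteoglycan Vcan, cut by several ADAMTS enzymes, was at 0.877, 3.84 and 8.79 FPKM in R and 5.04, 6.16 and 10.5 FPKM in vehicle, and Acan was at or near 0.

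**Figure D5:**
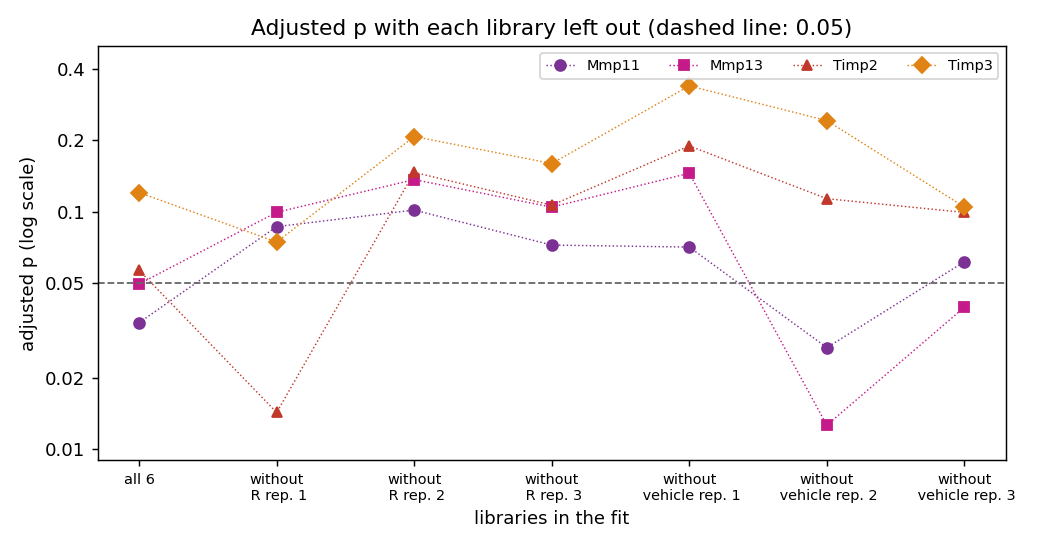
Adjusted p (y axis, log scale) of Mmp11, Mmp13, Timp2 and Timp3 with all 6 libraries and with each library left out (x axis); the dashed line is 0.05. Mmp11 and Mmp13 lie below it with all 6 libraries, Timp2 without R replicate 1, and Timp3 in none of these fits.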

How the data were processed

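The authors deposited 1 table of FPKM values for 6 libraries of mouse cells, per the file headers; the submitters' processing notes name edgeR 3.18.1 and the builds GRCm38 and mm10. No aligner, counter or annotation is named in the labels or headers. The table's last line broke off after 10 characters and was left out. Symbols and coordinates came from GENCODE M21 and were found for 49302 of 49328 identifiers. Depth was estimated from FPKM times exon length, which gave whole reads within 0.02 for 98.3% to 98.4% of values under 20.5 reads; read numbers depend on that annotation and cover counting error only.

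The test was limma 3.58.1 (R 4.3.3) on log2(FPKM + 1) with a trend, 2 groups and Benjamini-Hochberg adjustment over 11862 genes. It was checked on simulated reads, which had the same low spread beyond counting error in every gene. That check does not cover genes as variable as Mmp13 was in vehicle. Alternatives were other pseudocounts, filters and scalings, a replicate block, and leaving out each library. The members and lists were chosen with earlier results of these data known. Values per library are given for members past the threshold, every TIMP and the 3 most abundant of each other subfamily; others were chosen after their values were seen.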

Additional observations from a re-analysis of the deposited data

How the results depend on the processing

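The family's count of 2 calls depended on the processing. It was 1 (Mmp11) with a pseudocount of 5 or quantile normalization, 0 without a filter on low values (no member called in limma, with 344 of all genes called against 809), and 0 to 2 with 1 library left out, where all genes gave 337 to 879. The count of members higher in R, 1 in the fit reported, was 2 with the stricter filter and with equal medians, where Timp2 joined, 0 without a filter, and 0 to 1 with 1 library left out. The count of members lower in R, 1 in the fit reported, was 0 with a pseudocount of 5, without a filter, with quantile normalization and with equal medians, and 0 to 1 with 1 library left out. With the replicate number as a block, 5 members were called, 3 higher (Mmp11, Timp2 and Timp3) and 2 lower (Mmp13 and Adamts2). The deviations of same-numbered libraries correlated at 0.14, -0.01 and -0.03, and those of the other pairs at -0.14 to 0.14. The labels give no pairing, and these correlations cannot settle whether the numbers pair the libraries. The summed level in R over vehicle kept its direction in each subfamily under equal medians and with each library left out (TIMP 1.499 to 1.87, MMP 0.76 to 0.93). The sign of Adam12, Adam23, Adamtsl4, Mmp12 and Mmp2 changed under at least 1 alternative, and none of these was called. Groups of 3 limit the precision, and an exact permutation test of 3 against 3 cannot go below 0.1.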
